A study of Mus musculus with 2 samples.

Results

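The genes that sense and move short-chain fatty acids were followed in the mid colon of wild-type (WT) mice and mice lacking complement component 3 (C3 KO). They are 10 genes of the 30921 with a symbol on the Mouse Gene 2.0 ST array, taken as the rows of the main probe set category whose gene symbol was Ffar2, Ffar3, Hcar2, Olfr78, Slc5a8, Slc16a1, Slc16a3, Bsg, Acss1 or Acss2. Each symbol had 1 transcript cluster, the group of probes that the array reads together as a gene, so all 10 were measured. The series holds 2 arrays, 1 of WT RNA and 1 of C3 KO RNA. Both groups were FVB mice, 16 weeks of age, given no treatment. They came from matings of heterozygous C3 mice. The RNA was extracted from frozen mid colon, although the tissue entry in the sample labels reads distal colon. How many mice stand behind each array, and which part of the C3 gene was deleted, are not given in the sources used here. With 1 array in each group there were no replicates, so no error between mice, no test and no p-value could be given for any gene, and the number of arrays limits the precision of all that follows.

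Short-chain fatty acids, mainly acetate, propionate and butyrate, are made by bacteria that ferment fiber in the large bowel. Colonocytes take them up through transporters that carry sodium or protons along with the acid, join them to coenzyme A and burn them or use the acetyl group, while receptors on enteroendocrine cells, leukocytes, fat cells and nerves read their presence. Acetate bears on the study directly, since it was given to C3 KO mice and to their intestinal epithelial cells in other experiments, which are not analysed here.

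Levels are log2 values, so a difference of 1 is a 2-fold difference, and every difference is C3 KO minus WT. Of the 10 genes, 1 was at least 1.5-fold higher in the C3 KO array (Olfr78), 1 was at least 1.5-fold lower (Ffar2) and 8 lay within 1.5-fold, which is 0.585 on the log2 scale. Over all 30921 genes, 3.47% were that much higher and 3.77% that much lower, 7.24% in either direction. A count over 10 genes is too small to be read against those shares. The difference was positive in 7 of the 10 genes, negative in 2 and 0 in 1, and its median was 0.21 beside 0.00 over all genes. Positive differences made up 48.4% of all genes, and 66.8% of those whose mean level reached 10, where Slc5a8, Slc16a1, Acss1 and Bsg lie.

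How far each gene stood above background differed between the roles. The array carries 23 antigenomic probe sets, made of sequences that match no mouse gene, and their levels ran from 1.45 to 8.56 in the WT array around a median of 4.20, and from 1.48 to 8.11 in the C3 KO array around a median of 3.99. Slc5a8, Slc16a1, Acss1, Acss2 and Bsg lay above all 23 in both arrays. The 4 receptors and Slc16a3 lay inside the range of these background probe sets in both arrays, and they include both genes that passed 1.5-fold. Why the 23 levels differ so widely was not examined. Lying inside their range, or under some of them, therefore does not settle whether a gene was detected.

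**Figure D1:**
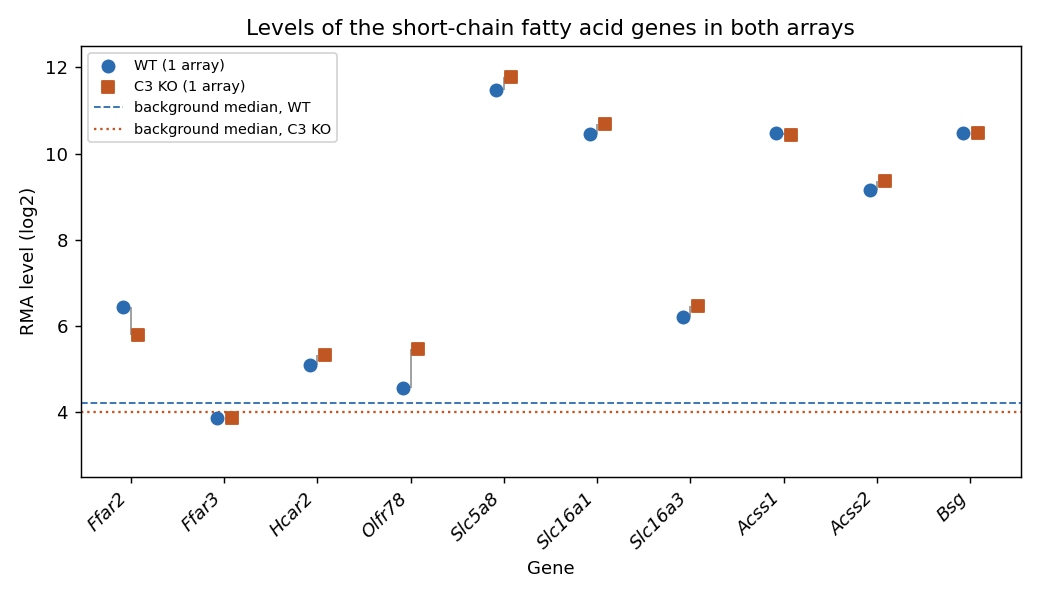
Log2 level of each of the 10 genes in the WT array (circles) and the C3 KO array (squares), 1 array each, with the median of the 23 background probe sets in each array as horizontal lines. Ffar2 is the one gene past 1.5-fold lower in C3 KO (6.43 against 5.78) and Olfr78 the one past it on the higher side (4.56 against 5.46), both inside the range of the background probe sets, while Ffar3 sits at 3.85 in both arrays, under both background medians.

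Ffar2 encodes free fatty acid receptor 2 (GPR43), a receptor for acetate, propionate and butyrate that couples to the inhibitory and Gq classes of G protein. Its cluster (gene ID 233079) lies on the minus strand at chr7:30818357-30823775 in GRCm38. The level was 6.43 in WT and 5.78 in C3 KO, a difference of -0.65 or 1.57-fold lower in C3 KO. Both values were over the background median, by 2.23 in WT and 1.79 in C3 KO. Of the 23 background probe sets, however, 8 were as high as Ffar2 or higher in WT and 9 in C3 KO. Of the 28 probes of the cluster, 13 are listed as matching its mRNA directly.

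Ffar3 encodes free fatty acid receptor 3 (GPR41), a relative that prefers propionate and butyrate and is known from enteroendocrine cells and peripheral neurons. It lies next to Ffar2 on the same strand (gene ID 233080, chr7:30854330-30856178), across a gap of 30554 bases. Ffar3 read 3.85 in both arrays, a difference of 0.00, and differed from the background median by -0.35 in WT and -0.14 in C3 KO. Its 15 probes thus gave a reading that could not be told from background, and the equal values say nothing of a stable level. Equal values were seen for 1055 of the 33793 transcript clusters of the main category, 3.12% of them.

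Because these receptor genes are neighbours of which one differed between the arrays and the other lay at background, the 250 bases before their start sites are shown as RefSeq gives them for GRCm38.p6. They are written 5′ to 3′ on the strand of the gene, with every CpG, the dinucleotide that DNA methylation acts on, in capitals. RefSeq lists 4 start sites for Ffar2, of which the most upstream is printed.
Ffar2, chr7:30823776-30824025, minus strand: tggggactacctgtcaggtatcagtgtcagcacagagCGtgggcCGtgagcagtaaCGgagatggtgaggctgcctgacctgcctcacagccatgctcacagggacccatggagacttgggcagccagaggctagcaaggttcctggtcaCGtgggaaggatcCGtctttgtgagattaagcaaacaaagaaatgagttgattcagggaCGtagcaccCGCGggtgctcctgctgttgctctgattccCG
Ffar3, chr7:30856179-30856428, minus strand: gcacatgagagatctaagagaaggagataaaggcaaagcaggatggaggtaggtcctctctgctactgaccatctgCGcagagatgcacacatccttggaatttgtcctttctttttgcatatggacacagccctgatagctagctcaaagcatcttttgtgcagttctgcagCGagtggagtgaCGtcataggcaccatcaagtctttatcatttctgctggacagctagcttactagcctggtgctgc
The Ffar2 window holds 9 CpG, a number that 40.3% of all 32851 windows of this length reach, where the median window has 6. The Ffar3 window holds 3 CpG, reached by 71.0% of windows, and the other Ffar2 start sites also have 3 each. Methylation was not measured, so these counts describe the sequence only.

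Hcar2 encodes hydroxycarboxylic acid receptor 2 (GPR109A), which binds butyrate, the ketone body 3-hydroxybutyrate and nicotinic acid, and is found on macrophages, neutrophils, fat cells and colonic epithelium. It lies on the minus strand at chr5:123863570-123865516 (gene ID 80885). Its level was 5.09 in WT and 5.31 in C3 KO, a difference of 0.22 or 1.17-fold. Hcar2 thus lay within 1.5-fold, and 10 of the 23 background probe sets were as high or higher in each array.

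Olfr78 encodes an olfactory receptor that responds to acetate and propionate and is used outside the nose, in the kidney, in blood vessels and in enteroendocrine cells of the colon. Its cluster spans chr7:102740721-102759471 on the minus strand (gene ID 170639). The level was 4.56 in WT and 5.46 in C3 KO, a difference of 0.90 or 1.86-fold higher in C3 KO. The WT value was 0.36 over the background median and the C3 KO value 1.47 over it. In WT 11 of the 23 background probe sets were as high as Olfr78 or higher, and in C3 KO 9 were, so that this difference, too, was between readings inside the background range. Genes with a mean level from 5 to 7, where Olfr78, Ffar2, Hcar2 and Slc16a3 all fall, passed 1.5-fold in 5.92% of 11285 cases, 306 higher and 362 lower. The mean of Olfr78, 5.01, is at the lower edge of that band. Of the 5740 genes from 4 to 5, 9.4% passed.

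**Figure D2:**
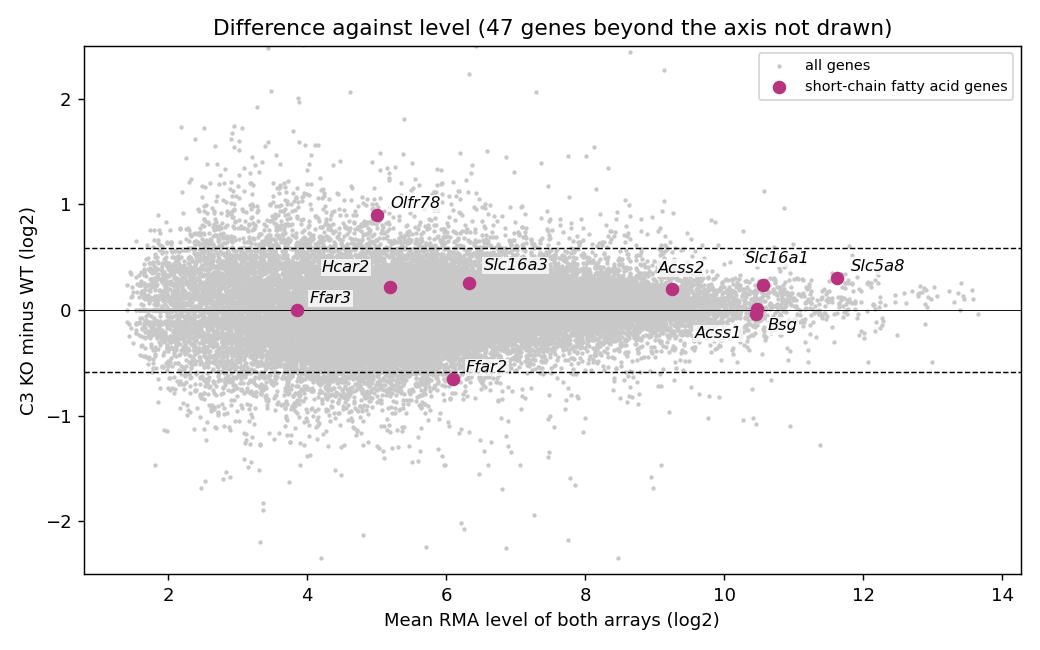
C3 KO minus WT difference (log2) against the mean level of both arrays (log2) for all genes (gray) and the 10 short-chain fatty acid genes (colored), with 1.5-fold as dashed lines and 47 genes beyond ±2.5 not drawn. Ffar2 (-0.65) and Olfr78 (0.90) lie past the dashed lines on opposite sides, and the genes at mean levels over 9 lie between -0.04 and 0.31.

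The genes around the receptors were set beside them to see whether a stretch of chromosome moved together. Within 100 kb of Ffar2 and Ffar3 lay 14 other genes, of which 1 was 1.5-fold higher, 0 were lower, and the median difference was -0.04. The one past 1.5-fold was Hamp, which encodes the iron hormone hepcidin, with 5.29 in WT and 6.09 in C3 KO (difference 0.79). It was named after its value was seen. Ffar1, the receptor for longer fatty acids that stands beside Ffar3, read 5.47 and 5.65. Around Olfr78, 10 of the 12 other genes within 100 kb are olfactory receptors, with 1 higher and 1 lower than 1.5-fold and a median of 0.10. Both were named after their values were seen. Olfr555 read 3.09 in WT and 4.68 in C3 KO, and Olfr33 read 2.55 and 1.93. The WT value of Olfr555 and both values of Olfr33 were under the background medians. None of the 4 genes within 100 kb of Hcar2 passed 1.5-fold, and Hcar1, the lactate receptor among them, read 6.07 in WT and 5.79 in C3 KO. Over all genes 7.24% passed 1.5-fold in either direction, and 13.0% did among those with a mean level under 4. Counts over 14, 12 or 4 genes are too small to be read against those shares.

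**Figure D3:**
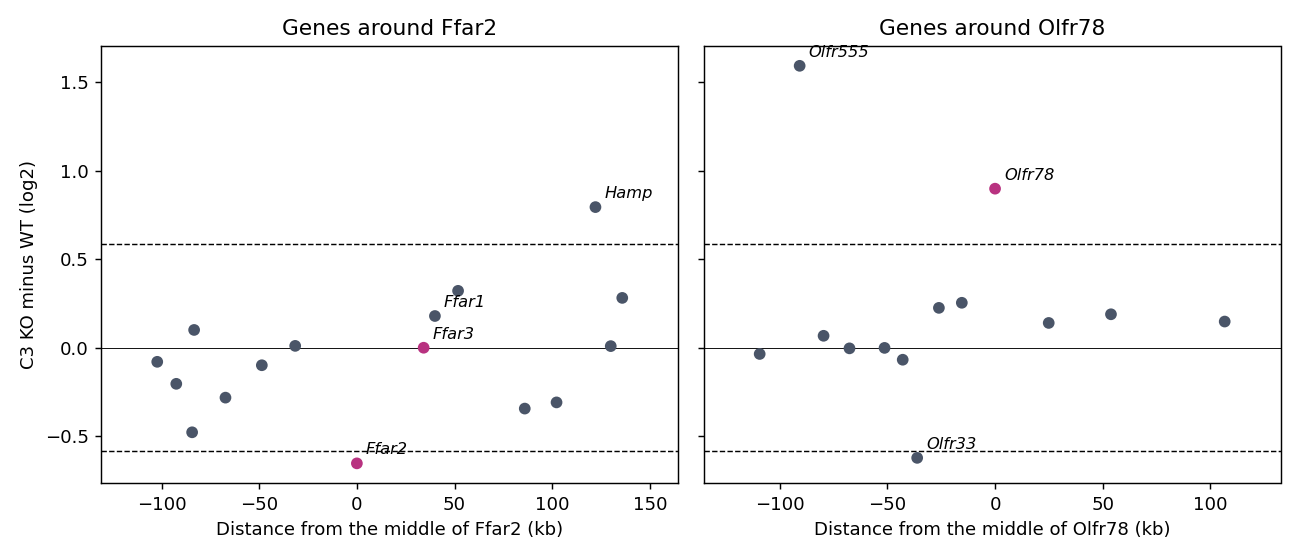
C3 KO minus WT difference (log2) of the genes within 100 kb of Ffar2 and Ffar3 (left) and of Olfr78 (right) against the distance between gene middles in kb, with 1.5-fold as dashed lines and the short-chain fatty acid genes colored. On the left Hamp (0.79) is the only gene besides Ffar2 (-0.65) past the lines, and on the right Olfr555 (1.59) and Olfr33 (-0.62) are, beside Olfr78 (0.90).

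The transporters had positive differences, and neither they nor their partner protein passed 1.5-fold. Slc5a8 encodes SMCT1, the sodium-coupled monocarboxylate transporter of the apical colonocyte membrane, and lies at chr10:88885992-88929515 on the plus strand (gene ID 216225). It measured 11.47 in WT and 11.78 in C3 KO, a difference of 0.31 or 1.24-fold, more than 7 log2 units over the background median in each array (7.27 and 7.79). Slc16a1 encodes MCT1, the proton-coupled carrier of butyrate, lactate and pyruvate, at chr3:104638668-104658462 on the plus strand (gene ID 20501). Its level was 10.45 in WT and 10.69 in C3 KO, a difference of 0.24 or 1.18-fold. Both carriers were thus somewhat higher in the C3 KO array and well inside 1.5-fold.

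Slc16a3 encodes MCT4, a carrier best known for exporting lactate from glycolytic cells, and lies at chr11:120948480-120960868 on the plus strand (gene ID 80879). Its readings were 6.20 in WT and 6.46 in C3 KO, a difference of 0.26 or 1.20-fold, with 8 of the 23 background probe sets as high or higher in WT and 7 in C3 KO. Bsg encodes basigin, the partner glycoprotein that brings MCT1 and MCT4 to the cell surface, at chr10:79704358-79711979 on the plus strand (gene ID 12215). It stood at 10.47 in WT and 10.48 in C3 KO, a difference of 0.01 or 1.01-fold, which turned to -0.04 after loess centring on level. Basigin thus differed less between the arrays than either carrier it serves.

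The start sites of both carriers above background are shown because in human colon tumors SLC5A8 is known to be silenced by methylation of CpG around its start, and because Slc16a1 has the most CpG among the genes that matched. CpG are again in capitals, on the gene's strand in GRCm38.p6 from RefSeq.
Slc5a8, chr10:88885742-88885991, plus strand: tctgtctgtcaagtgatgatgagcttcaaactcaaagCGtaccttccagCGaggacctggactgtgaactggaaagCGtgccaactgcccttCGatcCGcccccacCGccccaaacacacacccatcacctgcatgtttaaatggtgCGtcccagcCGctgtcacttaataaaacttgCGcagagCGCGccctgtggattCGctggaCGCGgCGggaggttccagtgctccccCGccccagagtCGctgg
Slc16a1, chr3:104638414-104638663, plus strand: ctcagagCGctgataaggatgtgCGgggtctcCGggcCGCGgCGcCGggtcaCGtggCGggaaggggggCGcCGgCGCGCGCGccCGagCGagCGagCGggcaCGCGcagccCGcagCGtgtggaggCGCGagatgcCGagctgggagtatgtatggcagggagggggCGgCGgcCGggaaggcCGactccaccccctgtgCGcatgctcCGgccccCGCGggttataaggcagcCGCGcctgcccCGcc
The Slc5a8 window holds 17 CpG, reached by 23.5% of windows, and that of Slc16a1 holds 37, reached by 2.20%. Slc16a3 has 29 CpG (6.78% of windows), Acss1 15 (27.3%) and Acss2 13 (31.5%). A window was matched for 7 of the 10 genes. Hcar2, Olfr78 and Bsg are named only.

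The enzymes that activate acetate did not pass 1.5-fold. Acss1, the mitochondrial acetyl-CoA synthetase, lies at chr2:150618105-150668500 on the minus strand (gene ID 68738). The arrays gave 10.48 in WT and 10.44 in C3 KO, a difference of -0.04 or 1.03-fold lower in C3 KO. Acss2, the enzyme of the cytosol and nucleus that supplies acetyl-CoA for lipid synthesis and histone acetylation, lies at chr2:155517948-155585724 on the plus strand (gene ID 60525). It measured 9.15 in WT and 9.35 in C3 KO, a difference of 0.20 or 1.15-fold. The mitochondrial and the cytosolic enzyme thus had differences of opposite sign, each small.

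The rest of the pathway was read from 9 further gene lists. Over all genes 7.24% passed 1.5-fold in either direction, and 2.96% did among those with a mean level from 7 to 10. A count of 0, 1 or 2 in lists this small, here or among the cell markers below, is therefore no result about them. The first list held relatives of the carriers. Among 14 other monocarboxylate transporters and accessory proteins, 0 passed 1.5-fold in either direction, 10 differences were negative and 3 positive, and the median was -0.10 (range -0.53 to 0.16). The 2 brightest were Slc16a5 (7.82 in WT, 7.66 in C3 KO) and Slc16a13 (7.32, 7.23).

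Apical exchangers and efflux proteins that work beside fatty acid absorption held one of the larger differences of the pathway. Of these 8 genes, 0 were 1.5-fold higher and 1 was lower, and the median was -0.14. The lower one was Slc9a3, which encodes the sodium-proton exchanger NHE3 whose proton export goes with uptake of the protonated acids. It read 11.00 in WT and 9.92 in C3 KO, a difference of -1.08 or 2.11-fold lower. The study itself had picked Slc9a3 out of these same arrays, so it is no independent evidence. Slc26a3, the chloride-bicarbonate exchanger of the colonic surface, read 12.06 and 11.87, and the sulfate transporter Slc26a2 read 11.35 and 11.47.

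Related receptors and the signaling proteins behind them gave no gene past 1.5-fold with a mean level of 5 or more. Of 8 other receptors for fatty and hydroxy acids, 1 was lower by that measure and the median was -0.19. That gene, Gpr84, a receptor for medium-chain fatty acids named after its value was seen, read 4.39 in WT and 3.56 in C3 KO, the latter under the background median. The long-chain fatty acid receptor Ffar4 read 7.40 and 7.21, and Gpr35 read 6.66 in WT and was 0.34 higher in C3 KO. Of 19 G proteins, arrestins and other effectors, 0 passed in either direction, with a median of -0.11 (range -0.54 to 0.22). Gnb1 read 11.39 and 11.56, and Gna11, a Gq-class subunit, read 10.47 and 10.21.

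Genes for the use of the acids inside the cell mostly lay within 1.5-fold, as most genes of the array did. Among 20 genes of butyrate oxidation and ketone bodies 0 passed 1.5-fold, and the median was -0.03 (range -0.40 to 0.19). Citrate synthase, Cs, which opens the citric acid cycle, read 10.74 in WT and 10.92 in C3 KO. None of the 8 genes from propionate to succinyl-CoA passed (median -0.06), with Suclg2 at 10.25 and 10.19 and Pcca at 9.71 and 9.42. None of the 9 genes of cytosolic acetyl-CoA use passed (median -0.10), with Hmgcs1 at 10.68 and 10.57 and Acly at 10.04 and 10.22. Among 12 other acyl-CoA synthetases and their regulators 0 were higher and 1 was lower (median -0.09). That one, Acsm5, was named after its value was seen and read 4.72 in WT and 3.97 in C3 KO, the latter under the background median. Srebf2, a regulator of sterol synthesis, read 9.73 and 9.63, and Acsm3 read 9.47 and 9.55.

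The 6 transcripts that the study assayed after giving acetate were lower in C3 KO in 5 cases, 2 of them past 1.5-fold, with a median of -0.32. Over all genes 7.24% passed 1.5-fold in either direction, and a count over 6 genes is too small to be read against that share. Alpi, the intestinal alkaline phosphatase, read 7.42 in WT and 6.37 in C3 KO, a difference of -1.05 or 2.06-fold. Muc1, a membrane mucin, read 5.91 and 4.94, a difference of -0.97 or 1.96-fold. Muc2, the gel-forming mucin of goblet cells, read 13.23 and 12.74, and the transcription factor Klf4 read 10.38 and 10.24. The transcript that was not lower was the water channel Aqp8, at 9.40 in WT and 9.55 in C3 KO (difference 0.15). The study picked Alpi from the genes altered on these arrays. It also cited lower Alpi in loperamide-induced constipation and a link to inflammatory bowel disease, and it reported lower Alpi by RT-qPCR. Because Alpi came from these arrays, the direction of this list is not independent evidence.

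**Figure D4:**
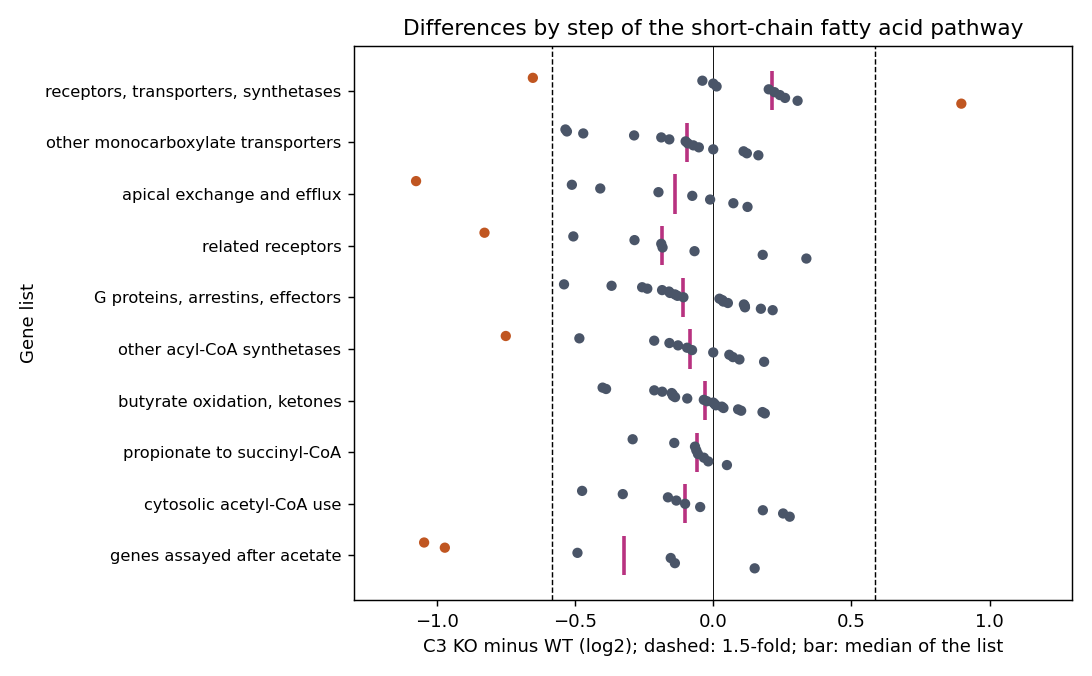
C3 KO minus WT difference (log2) of every gene in the 10 short-chain fatty acid genes and the 9 further lists, with the list median as a vertical bar, 1.5-fold as dashed lines and genes past it in orange. Outside the top row, where Ffar2 (-0.65) and Olfr78 (0.90) stand past the lines, the genes past them are all lower in C3 KO, Slc9a3 (-1.08), Gpr84 (-0.83), Acsm5 (-0.75), Alpi (-1.05) and Muc1 (-0.97).

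The arrays also differed in ways that touch every comparison between them. C3 itself read 8.15 in WT and 6.80 in C3 KO, lower by 1.35 log2 units. Xist read 10.35 in WT and 3.81 in C3 KO, while the Y-linked genes Eif2s3y, Ddx3y, Kdm5d and Uty lay between 2.97 and 5.18 in WT and at 7.68 or above in C3 KO. This is the pattern of female RNA in the WT array and male RNA in the C3 KO array, although the sources used here do not give the sex of the mice. Genotype and sex therefore cannot be told apart in any difference above or below. All 10 markers of pancreatic acinar cells were higher in the WT array, with C3 KO minus WT differences from -9.36 to -3.26, and the log2 of their summed level was 16.00 for WT against 9.97 for C3 KO. These digestive enzymes and their cofactor were Pnlip, Cel, Cpb1, Ctrl, Amy2a5, Ctrb1, Cela1, Cpa1, Prss2 and Clps, with Ctrb1, a chymotrypsinogen, at a level of 13.30 (WT) and 6.31 (C3 KO), and Cela1, an elastase, of 12.61 and 9.35. Acinar RNA in the WT array thus moved with the group as well, and its part in the differences above was not tested.

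Markers of the cells known to carry these genes were compared between the same arrays. In bulk RNA, fewer cells of a type and less RNA per cell cannot be told apart. Epithelial markers differed by no more than 1.5-fold in 10 of 10 cases, and the log2 of their sum was 13.78 for WT against 13.86 for C3 KO, while Cdh1 and Krt8, defining genes of epithelium, read 11.85 and 12.05, and 11.34 and 11.45. Epithelial RNA, which colon tissue should hold, was thus present in both arrays. Among 10 surface colonocyte markers 1 was lower, Car1, a carbonic anhydrase, at 11.51 and 10.40 (difference -1.10 or 2.15-fold). Of the 10 differences 6 were positive and 4 negative, from -1.10 to 0.57, with a median of 0.03. The log2 of the summed level of these markers was 14.87 for WT and 14.79 for C3 KO. Ceacam1, the brightest, weighs most in that sum and read 13.40 in both arrays, and Guca2a read 12.21 and 12.24.

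The enteroendocrine, leukocyte and fat cell lists bear on the receptors. None of 10 enteroendocrine markers passed 1.5-fold (log2 of the sum 11.39 for WT, 11.37 for C3 KO). Pyy, an L cell hormone, read 8.79 and 9.13, and the granule protein Chgb read 9.19 and 9.04. Gcg, another L cell hormone gene, went the other way from Pyy, at 8.78 and 8.25 (difference -0.53). Of the 10 differences 7 were positive and 3 negative, from -0.53 to 0.34. Of 12 neutrophil and macrophage markers 1 was lower, the neutrophil gene S100a8, which was under the background median in both arrays (3.56 and 2.89) and was named after its value was seen. The log2 of their sum was 10.22 and 10.35, with Lyz2 at 8.16 and 8.32 and Cd14 at 7.42 and 7.49. Differences were positive in 7 of the 12 and negative in 5. The other neutrophil genes of the list were among the negative ones, S100a9 (-0.11), Csf3r (-0.15) and Cxcr2 (-0.43). The sum thus does not speak for neutrophils alone. Of 10 adipocyte markers 1 was lower, lipoprotein lipase, Lpl, at 8.10 and 7.50 (difference -0.60 or 1.52-fold). Of the 10 differences 7 were negative and 2 positive, with a median of -0.20. The log2 sum for adipocytes was 11.02 and 10.92, with Pck1 at 10.16 and 10.21 and Fabp4 at 7.54 and 7.33. Pck1, by far the brightest, weighs most in that sum and was slightly higher in C3 KO.

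Other tissue that could enter the samples was read the same way. None of 8 smooth muscle markers passed 1.5-fold, with Acta2 (11.22 in WT, 11.33 in C3 KO) and Myh11 (10.88, 11.03) the brightest. Of 8 pancreatic islet markers 0 were higher and 2 were lower, Ins1 (4.70, 4.05) and Slc30a8 (3.69, 2.96). Both were named after their values were seen, and Slc30a8 was under the background median in both arrays. Over the islet list 4 differences were positive and 4 negative, with a median of 0.01. The hormone genes Ppy and Sst, which colonic endocrine cells also use, read 7.25 and 7.34, and 7.22 and 7.28. Of 7 red blood cell markers 1 was higher, the globin Hbb-bt (5.02, 5.67), and 1 was lower, Alas2 (5.29, 4.51), the latter named after its value was seen. The alpha globins Hba-a2 and Hba-a1 read 8.19 and 8.47, and 7.13 and 7.21. Whether Ffar2 or Olfr78 followed any of these cell types was not tested.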

How the data were processed

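Total RNA of mid colon was labeled and hybridized to 2 Mouse Gene 2.0 ST arrays, 1 WT and 1 C3 KO. The authors normalized both arrays together with gene-level RMA in Affymetrix Power Tools, and the deposited gene table of 41345 probe sets holds these values on the log2 scale. RMA brings the arrays to nearly the same distribution. The authors' tables of fold changes and of KEGG and GO enrichment hold their own comparison and were not used. From the log2 levels, C3 KO minus WT was computed for 30921 gene symbols with Python 3.11.15, pandas 2.3.3 and numpy 2.4.6, taking the mean over clusters for 657 symbols with several. A gene was called at 1.5-fold, the fold the study used, with no filter on low values. The counting of calls was tested on simulated data with known changes, which gives no error between mice. Positions are those of the deposited annotation in GRCm38. RefSeq windows were matched by symbol.

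The 10 genes and the other gene lists were chosen with earlier results of these data known. All 10 genes were named. From each other list, the genes past 1.5-fold at a mean level of at least 5 were named, with the 2 brightest of the rest, apart from a gene that is not reported here. A dimmer gene that is named where 1 or 2 of a list passed was named after its value was seen. So were Gcg, S100a9, Csf3r, Cxcr2 and Aqp8, which lay within 1.5-fold. In 10 alternatives, the centring, the table, the treatment of several clusters, the filter, the fold threshold and the unit counted were varied.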

Additional observations from a re-analysis of the deposited data

How the results depend on the processing

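Only loess centring could move the value of a single gene, since each of the 10 has 1 cluster, the median of all genes was 0.00, the series table holds equal values and the filters only leave genes out. With it Ffar2 stayed at -0.65, Olfr78 went from 0.90 to 0.96, and Bsg, within 1.5-fold, went from 0.01 to -0.04. The share of all genes past 1.5-fold was 3.56% among genes with a mean level of at least 6, beside 7.24% with no filter. It was 1.3% at 2-fold and 26.4% at the lowest fold threshold tried. The number of short-chain fatty acid genes called higher was 0 with a mean level of at least 6, since Olfr78 is then left out, and 0 at 2-fold. The number called lower was 0 at 2-fold. No paired analysis was possible because each group has 1 array. Neither a replicate could be left out nor any error estimated, and the receptors and Slc16a3 lie inside the range of the background probe sets, which limits what their differences can show.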
